A study of Rattus norvegicus with 12 samples.

Results

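The interferon response genes are a module of 39 listed rat genes that cells switch on when they sense an interferon. Of these, 37 were measured among the 18166 genes with a probeset (the group of probes that reads 1 gene) carrying a single gene symbol, and where a gene had several such probesets the one with the highest mean over all 12 arrays stood for it. Eif2ak2 and Bst2 were not analysed here. The arrays came from kidneys of male Sprague Dawley rats, with a part of a kidney taken from each animal. L-NAME, an inhibitor of nitric oxide synthases, was given at 15 mg/kg per day with 6 g/L NaCl in the drinking water, which raises blood pressure and damages the renal vessels, glomeruli and tubules. CTL rats received no L-NAME, W0 rats were taken at the peak of damage, and W1 and W5 rats were taken 1 and 5 weeks after L-NAME was stopped, with 3 arrays in each group. Whether the CTL rats drank NaCl is not given in the sources used here. L-NAME was stopped rat by rat, once proteinuria passed a set level, so the length of exposure varied.

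Interferons are secreted proteins that warn neighbouring cells of viruses and tissue damage. Type I interferons signal through the receptor chains Ifnar1 and Ifnar2 to a complex that holds Stat2 and Irf9 and binds a DNA element called the ISRE, while interferon gamma signals through Ifngr1 and Ifngr2 to genes with another element, called GAS. The target genes encode sensors of nucleic acids, enzymes that block viral replication, the ubiquitin-like protein ISG15 and its enzymes, and transcription factors that feed back on the pathway. In injured kidney such genes are expressed by leukocytes that enter the tissue and by resident tubular and endothelial cells. A whole-tissue array cannot tell a larger number of cells of one type from more RNA per cell.

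Members of the module rose, fell or did not pass the test within the same comparison. At W0, 5 of the 37 members were higher than in CTL and 1 was lower (limma, Benjamini-Hochberg adjusted p under 0.05 over all genes, which is what called means below), against 4.99% of all genes called higher and 4.41% called lower. The members called higher were Parp14, Parp9, Dtx3l, Trim25 and Rsad2, and the one called lower was Usp18. At W1, 3 members (Parp14, Parp9 and Dtx3l) were called higher and none lower, against 2.23% of all genes higher and 0.787% lower. At W5 no member was called against CTL in limma, where 0% of all genes were called. At an unadjusted p under 0.05, 3 members were higher and 1 lower, against 574 higher and 759 lower among all 18166 genes. Over the 4 groups together, 4 members (Parp9, Parp14, Usp18 and Dtx3l) passed the moderated F test, against 6.72% of all genes.

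The direction over the module was more uniform at W1 than at W0. The mean of W1 was above that of CTL in 35 of 37 members, the exceptions being Ifit1 and Oas1a, whereas the mean of W0 was above CTL in 23 and below it in 14. The median difference from CTL over the members was 0.10 on the log2 scale at W0, 0.38 at W1 and 0.08 at W5, and the same medians over all genes were -0.01, 0.03 and -0.02. W1 had the highest mean of the 4 groups in 29 members, against 28.9% of all genes, and CTL had the lowest mean in 18 members, against 27.5% of all genes. In 13 members, Usp18, Mx1, Isg15 and Oas2 among them, the mean was below CTL at W0 and above it at W1, a course that 15.5% of all genes took.

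**Figure D1:**
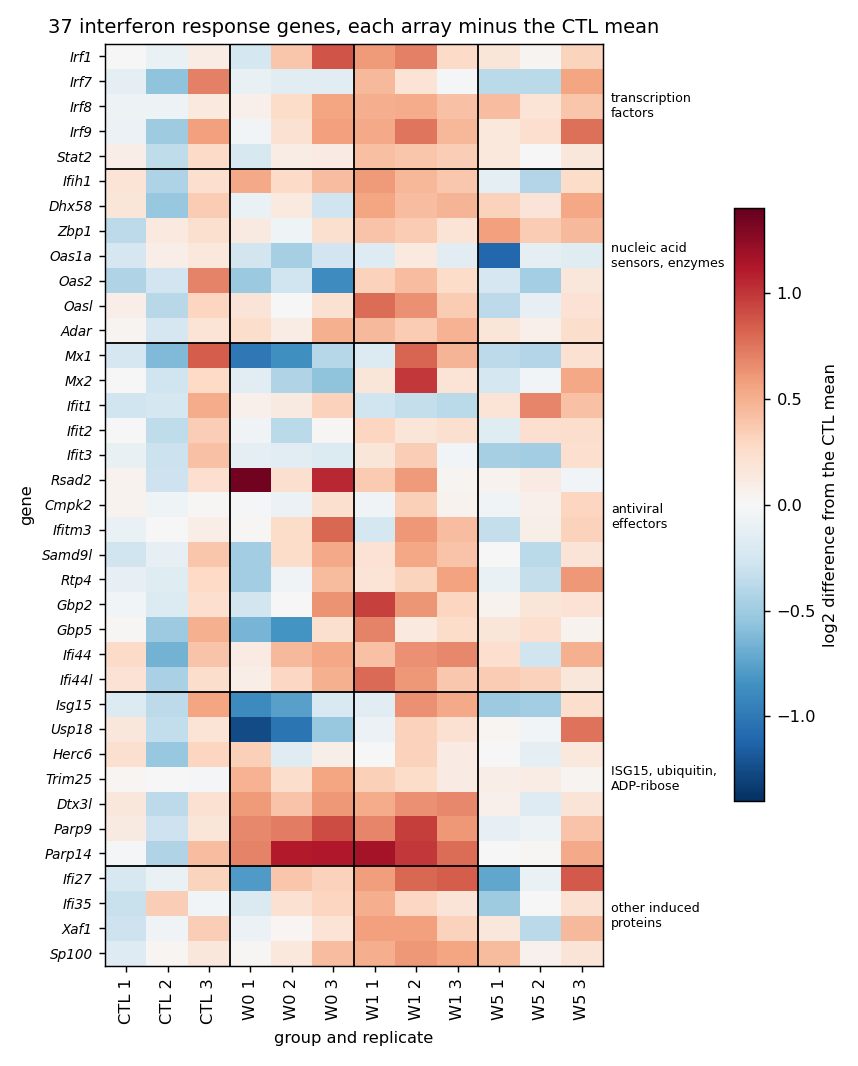
Heat map of the 37 measured members (vertical axis, ordered by role) in the 12 arrays (horizontal axis, group and replicate). Colour gives the log2 level minus the CTL mean of the same gene, red above and blue below. The 3 W1 columns are red for nearly the whole module, the W0 columns hold the darkest red (Rsad2, 1.36 in W0 replicate 1) and the darkest blue (Usp18, -1.25 in the same array).

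In 16 members every W1 array lay above every CTL array, against 13.7% of all genes, and in 1 member (Ifit1) every W1 array lay below, against 8.34%. At W0 this was so for 5 members above (Parp14, Parp9, Dtx3l, Trim25 and Ifih1), against 13.3% of all genes, and for 2 below (Usp18 and Oas1a), against 13.2%. The 16 members at W1 were Irf1, Irf8 and Stat2 among the transcription factors, Ifih1, Dhx58, Oasl and Adar among the sensors, Gbp2, Ifi44 and Ifi44l among the effectors, Trim25, Dtx3l, Parp9 and Parp14, and Ifi27 and Sp100. Most of these did not pass the adjusted threshold.

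The control arrays were not alike for these genes. CTL replicate 3 held the highest CTL value in 34 of 37 members and CTL replicate 2 the lowest in 26, while over all genes CTL replicate 3 was highest in 43.5%. Relative to the CTL mean, the median member stood at -0.02 in CTL replicate 1, -0.28 in replicate 2 and 0.28 in replicate 3. W5 replicate 3 was likewise the highest W5 array in 28 members (40.1% of all genes), at a median of 0.25 against 0.01 and -0.01 in the other W5 arrays. W0 replicate 3 was the highest W0 array in 27 members (30.7% of all genes), and W1 replicate 3 the highest W1 array in 5 (21.4%). The median within-group SD of the members was 0.32 in CTL and 0.28 in W5, above the 0.14 of all genes in each of those groups, and 0.22 at W0 and 0.17 at W1, where all genes had 0.16 in both.

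The 3 W1 arrays each stood above the CTL mean, with median differences of 0.42, 0.52 and 0.34 for replicates 1 to 3. Over all genes these medians were 0.116, -0.019 and -0.003, so W1 replicate 1 was raised as a whole. The medians of the W0 arrays over the members ranged more, with -0.05, 0.11 and 0.32. With each array centred on its median, the members' W1 median was 0.29 (all genes -0.06). With quantile normalization repeated it was 0.34 (all genes -0.01). In both, 35 members were higher. Without CTL replicate 3 the W1 median rose to 0.57, 36 members were higher, and 29 members had no overlap with the remaining CTL arrays (20.8% of all genes). Without CTL replicate 2 the W1 median was 0.26 with 32 members higher.

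The W0 median rested on single arrays. Leaving out CTL replicate 1, 2 or 3 gave 0.05, 0.02 or 0.23, and leaving out W0 replicate 1, 2 or 3 gave 0.22, 0.18 or 0.02. The W5 median against CTL turned to -0.03 when CTL replicate 2 was removed and to -0.02 when W5 replicate 3 was. It was 0.22 with CTL replicate 3 removed, and 0.13 and 0.12 with W5 replicates 1 and 2 removed.

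**Figure D2:**
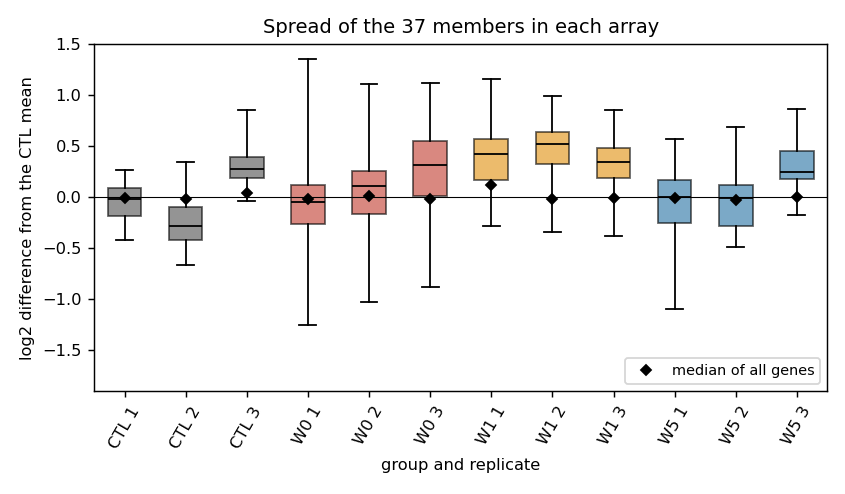
Box plot of the 37 members in each array (horizontal axis, group and replicate), as log2 difference from the CTL mean of each gene (vertical axis). Boxes span the quartiles with the median as a line, whiskers reach the lowest and highest member, and diamonds give the median of all 18166 genes. CTL replicate 3 (median 0.28) lies above the other CTL arrays while its diamond stays at 0.04.

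Parp14, Parp9 and Dtx3l rose both at W0 and at W1. Parp14 is a mono-ADP-ribosyltransferase, Parp9 is a further member of that family, and Dtx3l is an E3 ubiquitin ligase that forms a complex with Parp9. Parp14 read 6.62, 6.21 and 7.07 in CTL, 7.32, 7.74 and 7.75 at W0, 7.79, 7.62 and 7.41 at W1, and 6.64, 6.65 and 7.17 at W5 (log2 levels, replicates 1 to 3). All 6 arrays of W0 and W1 lay above all CTL and W5 arrays. Parp14 was 1.96-fold higher at W0 than in CTL (log2 difference 0.97, 95% interval 0.52 to 1.43, adjusted p = 0.00999 in limma) and 1.97-fold higher at W1 (0.98, interval 0.52 to 1.43, adjusted p = 0.0246 in limma). The W0 call of Parp14 held with each of the 12 arrays left out in turn, at log2 differences from 0.76 to 1.19. The W1 call was lost without CTL replicate 1, CTL replicate 2, W1 replicate 1 or W1 replicate 2 (adjusted p between 0.0835 and 0.102 in limma).

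Parp9 read 6.89, 6.48 and 6.94 in CTL, 7.44, 7.49 and 7.68 at W0, 7.45, 7.74 and 7.38 at W1, and 6.66, 6.69 and 7.17 at W5. Its W0 and W1 arrays again stood apart from the other 2 groups without overlap. The difference from CTL was 0.77 at W0 (1.70-fold, interval 0.41 to 1.12, adjusted p = 0.0102 in limma) and 0.75 at W1 (1.69-fold, interval 0.40 to 1.11, adjusted p = 0.0268). Without CTL replicate 2 the adjusted p at W0 was 0.0505, and the W1 call was lost without CTL replicate 1, CTL replicate 2, W1 replicate 1 or W1 replicate 2 (0.0638 to 0.121).

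Dtx3l followed the same order at a smaller size. It read 6.03, 5.49 and 6.07 in CTL, 6.47, 6.27 and 6.47 at W0, 6.39, 6.51 and 6.54 at W1, and 5.94, 5.69 and 6.04 at W5. Its differences from CTL were 0.53 at W0 (interval 0.20 to 0.87, adjusted p = 0.0435 in limma) and 0.61 at W1 (interval 0.28 to 0.94, adjusted p = 0.0489). Both calls lay at the edge of the threshold. The W0 call was lost without CTL replicate 1 or 2, any W0 array, W1 replicate 2 or 3, or W5 replicate 1 (0.0511 to 0.17), with a difference of 0.35 without CTL replicate 2. The W1 call was lost without any single array except W0 replicate 1 (0.051 to 0.165). Both calls of Dtx3l were also lost with each array centred on its median, with quantile normalization repeated, and with only the compared groups in the fit.

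From W0 to W5 Parp14 fell by 0.79 (interval -1.24 to -0.34, adjusted p = 0.0452 in limma) and Parp9 fell by 0.70 (interval -1.05 to -0.34, adjusted p = 0.0275). Together with a rise of Usp18 these were the members called between W5 and W0, 2 lower and 1 higher, against 3.17% of all genes lower and 1.88% higher. Dtx3l differed by -0.51 (adjusted p = 0.0779 in limma). The Parp9 call was lost without W0 replicate 2, W0 replicate 3, W5 replicate 1 or W5 replicate 2 (0.0602 to 0.129). The Parp14 call was lost without CTL replicate 1, W0 replicate 2 or 3, any W1 array, or W5 replicate 1 or 2 (0.0518 to 0.183).

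**Figure D3:**
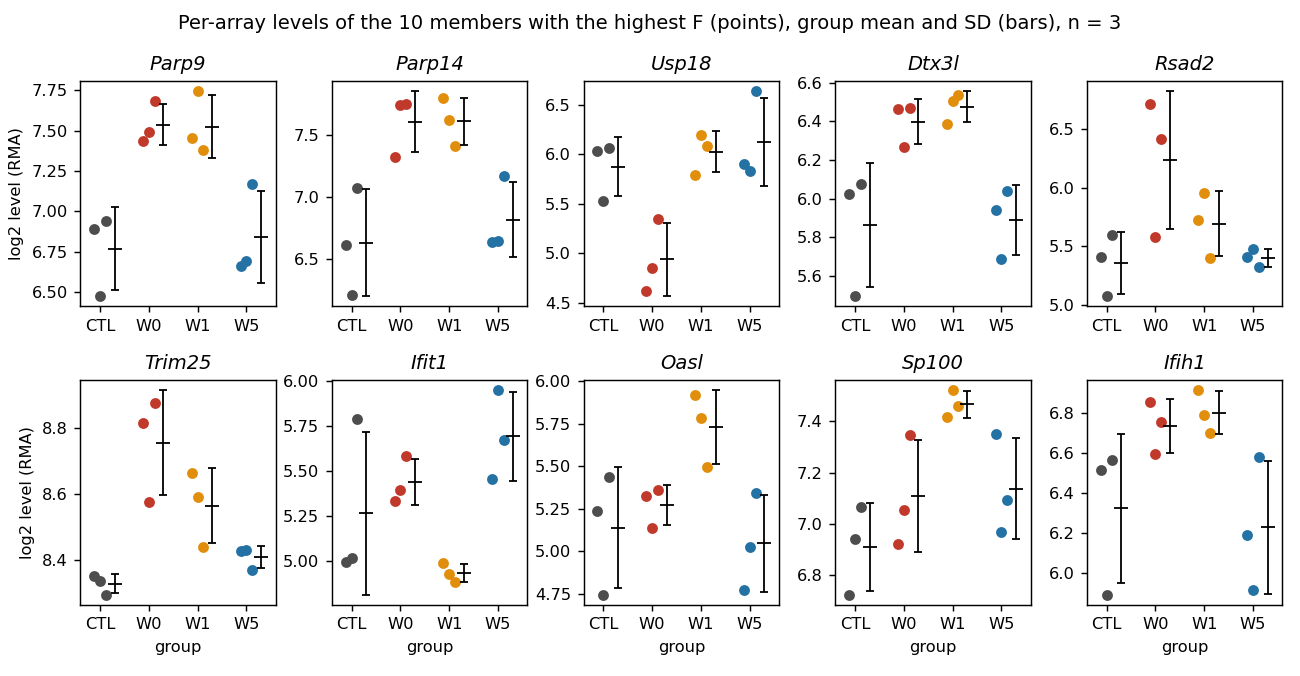
Levels of the 10 members with the highest moderated F (one panel each), by group on the horizontal axis and log2 level on the vertical axis. Points are single arrays, and the bar beside them gives the mean and SD of 3 arrays. Parp9, Parp14 and Dtx3l are high at W0 and W1, Usp18 is low at W0 alone, Rsad2 and Trim25 are highest at W0, and Oasl and Sp100 are highest at W1.

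Usp18 went the opposite way. Its product removes ISG15 from proteins and dampens signalling from the type I receptor. Usp18 read 6.03, 5.53 and 6.06 in CTL, 4.62, 4.85 and 5.34 at W0, 5.79, 6.19 and 6.08 at W1, and 5.90, 5.83 and 6.63 at W5, so that every W0 array lay below every other array. It was 0.523-fold of CTL at W0 (log2 difference -0.94, interval -1.43 to -0.44, adjusted p = 0.0208 in limma) and 2.27-fold higher at W5 than at W0 (1.19, interval 0.69 to 1.68, adjusted p = 0.00887). The W5 against W0 call held with each array left out (differences from 0.93 to 1.39). The W0 against CTL call was lost without CTL replicate 1, CTL replicate 3, W0 replicate 1 or W0 replicate 2 (0.0589 to 0.0805). A second, dimmer Usp18 probeset gave -1.07 at W0 against CTL and 1.03 at W5 against W0, without passing the threshold (adjusted p = 0.0744 and 0.119 in limma).

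Isg15, the ubiquitin-like modifier itself, also had a lower mean at W0 and a higher mean at W1 than in CTL, but did not pass the test, and its W5 mean lay below CTL where that of Usp18 lay above. It is named here after its values were seen. Its group means were 7.29 ± 0.48 in CTL, 6.67 ± 0.36 at W0, 7.63 ± 0.43 at W1 and 7.04 ± 0.43 at W5 (SD, n = 3), and the W0 difference was -0.62 (interval -1.23 to -0.02, adjusted p = 0.205 in limma). Herc6, which attaches ISG15 to proteins in mouse, differed from CTL by 0.08 at W0 and 0.15 at W1. Of the 7 genes of this group 4 were called higher and 1 lower at W0, and Isg15 and Herc6 were not called. Over all genes 4.99% were called higher and 4.41% lower at W0.

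Trim25, an E3 ubiquitin ligase, rose at W0. It read 8.35, 8.34 and 8.30 in CTL, 8.82, 8.57 and 8.88 at W0, 8.66, 8.59 and 8.44 at W1, and 8.43, 8.43 and 8.37 at W5. The difference at W0 was 0.43 (1.34-fold, interval 0.19 to 0.67, adjusted p = 0.0276 in limma), on CTL values that differed little (SD 0.03). The call was lost without any one CTL array, W0 replicate 1 or W0 replicate 3 (0.07 to 0.11). At W1 it was 0.24 above CTL, with no overlap between the arrays of the 2 groups, and was not called (adjusted p = 0.323).

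Parp9, Dtx3l and Parp14 are neighbours on rat chromosome 11. In the RefSeq annotation (GRCr8) no other protein-coding gene lies between them, Parp9 and Dtx3l run in opposite directions from start sites 1214 bases apart and their gene spans overlap, and the start of Parp14 is 87909 bases from that of Dtx3l on the same strand. Which probes of this pair read the stretch they share was not examined. Rsad2 and Cmpk2 on chromosome 6 are also adjacent and run in opposite directions, with starts 14730 bases apart.

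The ISRE core searched for was GAAANNGAA on both strands, in the 250 bases before to 50 after each start site in the RefSeq promoter table (GRCr8). It was present in 15 of the 26 measured members that the table lists and in 9.71% of all 33469 promoters. The GAS core TTCNNNGAA was present in 7 of the 26 and in 8.87% of all promoters, and in Oas1a the 2 ISRE matches overlap each other. The 2 sequences that follow are the 250 bases before the start site, 5′ to 3′ on the strand of the gene, of Parp14 and Rsad2, chosen because they are called members with an ISRE match there. Capitals mark the ISRE match, which begins 76 bases before the start in Parp14 and 146 bases before it, on the opposite strand, in Rsad2.
Parp14, chr11:78407884-78408133, plus strand: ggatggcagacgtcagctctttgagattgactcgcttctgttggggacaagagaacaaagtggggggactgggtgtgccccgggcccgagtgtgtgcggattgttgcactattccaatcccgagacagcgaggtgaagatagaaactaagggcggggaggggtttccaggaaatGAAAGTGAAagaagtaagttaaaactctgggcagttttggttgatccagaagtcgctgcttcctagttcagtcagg
Rsad2, chr6:48788121-48788370, minus strand: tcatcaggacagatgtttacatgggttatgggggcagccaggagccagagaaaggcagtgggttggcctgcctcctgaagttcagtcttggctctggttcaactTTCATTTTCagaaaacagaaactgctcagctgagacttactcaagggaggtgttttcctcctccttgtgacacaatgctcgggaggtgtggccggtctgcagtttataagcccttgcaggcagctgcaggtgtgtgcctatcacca
In Parp14 a GAS match begins 87 bases before the start and ends just upstream of the ISRE match, without overlap. For the next 4 members with a match in order of F, stretches of 29 bases around the first match are given, and the rest are not printed, again with the match in capitals.
Dtx3l, chr11:78320225-78320253, plus strand: cccgggaaacGAAACTGAAactttgcctc
Ifih1, chr3:67684009-67684037, minus strand: gaagagaatcGAAACAGAAaccgatgtgt
Ifi44l, chr2:243328623-243328651, plus strand: ctgcttggctTTCTTTTTCtcatcctgtt
Gbp2, chr2:234005687-234005715, plus strand: gttttttagtTTCACTTTCattgtcttaa
The Dtx3l match begins at base 11 of the transcribed side, whereas those of Ifih1, Ifi44l and Gbp2 begin 59, 90 and 30 bases before the start. Ifih1, Ifi44l and Gbp2 were not called in any comparison, so that a match was present in members that were called and in members that were not. The Parp9 promoter window held neither core. A match of these letters is a description of the sequence and does not show that a factor bound there.

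Among the antiviral effectors 1 of 14 was called at W0 and none at W1. Over all genes 4.99% were called higher and 4.41% lower at W0, and 2.23% and 0.787% at W1. Rsad2 encodes viperin, a radical SAM enzyme that makes a chain-terminating nucleotide. It read 5.41, 5.08 and 5.60 in CTL, 6.72, 5.58 and 6.42 at W0, 5.72, 5.95 and 5.40 at W1, and 5.41, 5.48 and 5.32 at W5. W0 replicates 1 and 3 were high and W0 replicate 2 fell within the CTL range. The difference was 0.88 (1.84-fold, interval 0.36 to 1.39, adjusted p = 0.0333 in limma), and the call was lost without CTL replicate 1 or 2 or W0 replicate 1 or 3 (0.0765 to 0.132). Cmpk2, the nucleotide kinase next to it, differed by 0.04 at W0.

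Ifit1, which binds viral RNA with a foreign cap, was the member that was lowest at W1. It read 4.99, 5.02 and 5.79 in CTL, 5.34, 5.40 and 5.59 at W0, 4.99, 4.93 and 4.89 at W1, and 5.46, 5.95 and 5.67 at W5. Its 3 W1 arrays were the lowest of the 12, though CTL replicate 1 was level with W1 replicate 1 at 2 decimals. The difference from W1 to W5 was 0.76 (interval 0.35 to 1.17, adjusted p = 0.114 in limma). Its relatives Ifit2 and Ifit3 differed from CTL by 0.23 and 0.16 at W1 and by -0.14 and -0.16 at W0.

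Mx1, a dynamin-like GTPase that traps viral nucleoproteins, showed the widest spread of the effectors in CTL. It is named here after its values were seen, with group means of 5.75 ± 0.76 in CTL, 5.00 ± 0.32 at W0, 6.12 ± 0.52 at W1 and 5.56 ± 0.35 at W5 (SD, n = 3). The W0 difference of -0.75 had an interval from -1.47 to -0.03 (adjusted p = 0.199 in limma). The other effectors ranged at W1 from 0.11 (Cmpk2) to 0.63 (Gbp2, a guanylate-binding protein induced by interferon gamma), with 13 of 14 effectors above CTL and 3 without overlap.

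None of the 7 measured nucleic acid sensors and enzymes was called, where 4.99% of all genes were called higher at W0 and 2.23% at W1. Ifih1, the helicase MDA5 that senses long double-stranded RNA, read 6.51, 5.89 and 6.56 in CTL, 6.86, 6.59 and 6.75 at W0, 6.91, 6.79 and 6.70 at W1, and 6.19, 5.91 and 6.58 at W5. Every W0 and W1 array lay above every CTL and W5 array, narrowly at W0. The differences were 0.41 at W0 (adjusted p = 0.214 in limma) and 0.48 at W1 (0.219).

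Oasl, an oligoadenylate synthetase relative, read 5.24, 4.75 and 5.44 in CTL, 5.32, 5.14 and 5.36 at W0, 5.92, 5.78 and 5.49 at W1, and 4.77, 5.03 and 5.34 at W5. Its 3 W1 arrays were the highest, 0.59 above CTL on average (interval 0.19 to 0.99, adjusted p = 0.116 in limma). The synthetases Oas1a and Oas2, whose products activate RNase L, differed from CTL at W1 by -0.07 and 0.34, and at W0 by -0.33 and -0.56. Of the others, Dhx58 (LGP2) and Adar, which edits double-stranded RNA, were 0.49 and 0.43 above CTL at W1, and Zbp1, a sensor of Z-form nucleic acid, was highest at W5 (0.46).

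All 5 transcription factors had a higher mean at W1 than in CTL, from 0.20 (Irf7) to 0.58 (Irf9). None was called, where 2.23% of all genes were called higher at W1. At W0 they ranged from -0.14 (Irf7) to 0.34 (Irf1). Irf8, a factor of macrophages and dendritic cells, had group means of 5.93 ± 0.12 in CTL, 6.23 ± 0.24 at W0, 6.41 ± 0.06 at W1 and 6.27 ± 0.13 at W5, with a W1 difference of 0.48 (interval 0.19 to 0.76, adjusted p = 0.0749 in limma). Irf9, the DNA-binding part of the type I complex, had 7.36 ± 0.54, 7.60 ± 0.31, 7.94 ± 0.15 and 7.74 ± 0.34 in the same order (SD, n = 3).

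Among the remaining 4 induced proteins Sp100, a component of PML nuclear bodies, came closest to a call. It read 6.72, 6.94 and 7.07 in CTL, 6.92, 7.05 and 7.35 at W0, 7.42, 7.52 and 7.46 at W1, and 7.35, 6.97 and 7.09 at W5. Its W1 arrays lay above all others, and the difference from CTL was 0.56 (1.47-fold, interval 0.25 to 0.86, adjusted p = 0.0511 in limma). Ifi27 and Xaf1 were 0.75 and 0.49 above CTL at W1, with Ifi27 spread over an SD of 0.80 at W5.

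**Figure D4:**
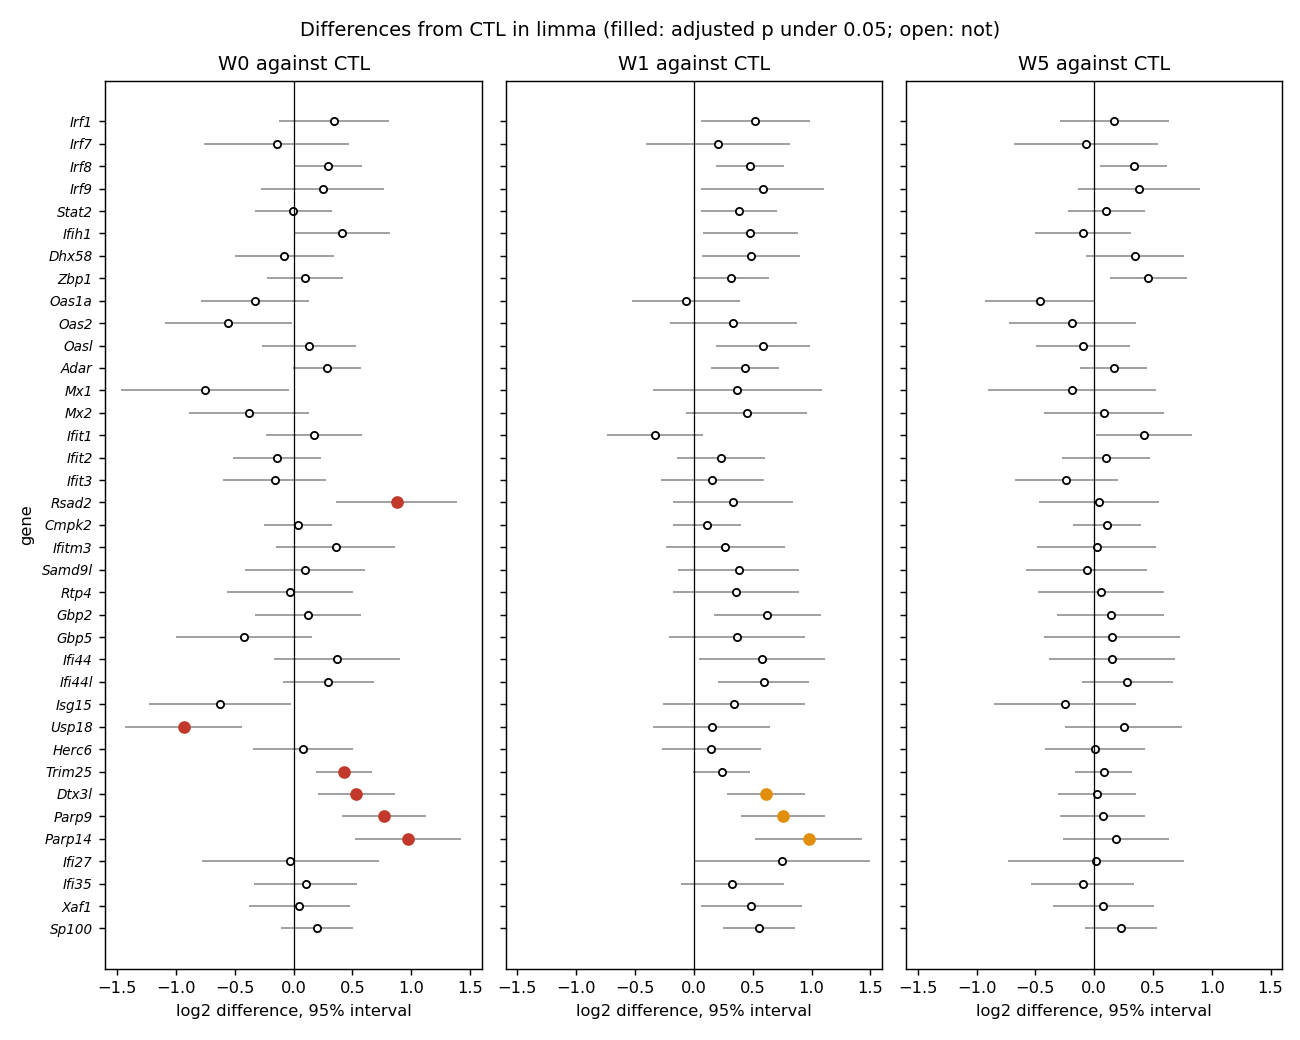
Log2 differences from CTL (horizontal axis) of the 37 members (vertical axis) at W0, W1 and W5, with 95% intervals from limma. Filled points passed the adjusted threshold of 0.05 and open points did not. Called members are 6 at W0 and 3 at W1, none at W5, and 35 of the W1 points lie right of 0.

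No member was called between W1 and W0, where 0.528% of all genes were called, or between W5 and W1, where 0.286% were. By unadjusted p under 0.05 in limma, 13 members were higher and 2 lower at W1 than at W0. Among all 18166 genes 1275 were higher and 753 lower. From W1 to W5, 1 member was higher and 7 lower, against 557 and 1509 of all genes. In 15 members every W1 array lay above every W0 array, against 8.42% of all genes, and in 13 every W5 array lay below every W1 array, against 12.4%. The median over the members was 0.30 from W0 to W1 (32 of 37 higher) and -0.33 from W1 to W5 (34 of 37 lower). Without W0 replicate 1 the W0 to W1 median was 0.20, and without W5 replicate 3 the W1 to W5 median was -0.52. The largest W0 to W1 differences were those of Mx1 (1.12) and Usp18 (1.09, adjusted p = 0.0561 in limma). With 3 arrays a group, an exact permutation test of a single pair of groups cannot go below a two-sided p of 0.1, and it gave 0.1 for each called member and comparison except Rsad2 at W0 (0.2). The ordinary F was also set against all 15400 partitions of the 12 arrays into 4 groups of 3, for 10 members. These were the members with the highest moderated F, picked on the same arrays, so small values were likely and add no separate evidence. The exact unadjusted p was 0.00604 for Trim25, 0.00818 for Parp9, 0.00929 for Dtx3l, 0.0108 for Parp14, 0.0145 for Usp18 and 0.0474 for Rsad2. For those not called in any comparison it was 0.033 for Sp100, 0.0487 for Oasl, 0.0515 for Ifih1 and 0.0519 for Ifit1.

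Within the groups, the members varied together from array to array. After each gene's group means were removed, the mean correlation over the 666 pairs of members was 0.41 and 90.8% of pairs were positive, where the mean over all pairs of the 18166 genes was 0.04. These values are over 12 arrays that share the groups' centring and are given as a description. With each array left out in turn the members' mean stayed between 0.30 (CTL replicate 3 removed) and 0.45. Irf9 had the highest mean correlation with the other members (0.64) and Trim25 (0.05) and Ifi35 (0.10) the lowest. Isg15 followed Mx1 (0.96), Usp18 (0.87) and Irf9 (0.86) most closely, and Parp14 followed Irf9 (0.91). Rsad2 was correlated with Parp14 at 0.05 and with Isg15 at 0.17.

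The genes upstream of the module were read from lists of ligands, receptors, signalling proteins and sensors. For these lists, the shares called over all genes were 4.99% higher and 4.41% lower at W0. At W1 they were 2.23% and 0.787%. None of 9 interferon ligands was called. Ifnb1 had group means of 3.43, 3.68, 3.55 and 3.72 in CTL, W0, W1 and W5, those of Ifng lay between 3.95 and 4.03, and the W0 differences of all 9 ranged from 0.03 (Ifna16l1) to 0.37 (Ifna5). Of 5 receptor chains, both chains of the interferon gamma receptor were called at W0 and at W1. Ifngr1 read 8.06, 7.92 and 8.48 in CTL, 9.03, 9.09 and 9.15 at W0, 8.92, 9.05 and 9.03 at W1, and 8.19, 8.36 and 8.53 at W5. It was 0.94 above CTL at W0 (adjusted p = 0.00103 in limma) and 0.85 at W1 (0.00731), and Ifngr2 was 0.67 (0.00611) and 0.63 (0.023) above. Ifnar1, with group means of 6.76 at W0 and 6.80 at W1 and a lower one of 6.45 at W5, was not called (0.36 at W0, adjusted p = 0.245). Ifnar2 was not analysed here.

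Of 9 Jak-Stat genes 1 was called at W0, the feedback inhibitor Socs3, which is also induced by interleukin 6. Its level was 1.43 above CTL at W0 (adjusted p = 0.00797 in limma), with W0 arrays at 7.94, 6.24 and 6.82 against CTL arrays between 5.49 and 5.72. Of 13 sensing genes, Tlr4 (0.88) and Myd88 (0.49) were called at W0 and Tlr4 (0.72) and Tlr7 (0.76) at W1. Tlr4 recognises bacterial lipopolysaccharide and damage signals, Tlr7 single-stranded RNA, and Myd88 is their adaptor.

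At W0 4.99% of all genes were called higher and 4.41% lower, and at W1 2.23% and 0.787%. Among 44 further interferon targets, 5 were called higher and 1 lower at W0, and 6 higher and none lower at W1. At W0 these were the chemokine Cxcl11 (1.15), the immunoproteasome subunit Psmb8 (0.85), the exonuclease Isg20 (0.67), Tor3a (0.43) and Trafd1 (0.43), with Gbp1 lower (-0.69). At W1 they were Lgals3bp (1.24), Psmb8 (1.03), Epsti1 (0.96), Ifitm1 (0.87), the peptide transporter Tap1 (0.80) and Psmb10 (0.78), also an immunoproteasome subunit. Cxcl11 was 0.24 above CTL at W1, whereas Lgals3bp at W0 was 0.63 above CTL (adjusted p = 0.0691 in limma). The median over the 44 was 0.23 at W0, 0.42 at W1 and 0.09 at W5.

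**Figure D5:**
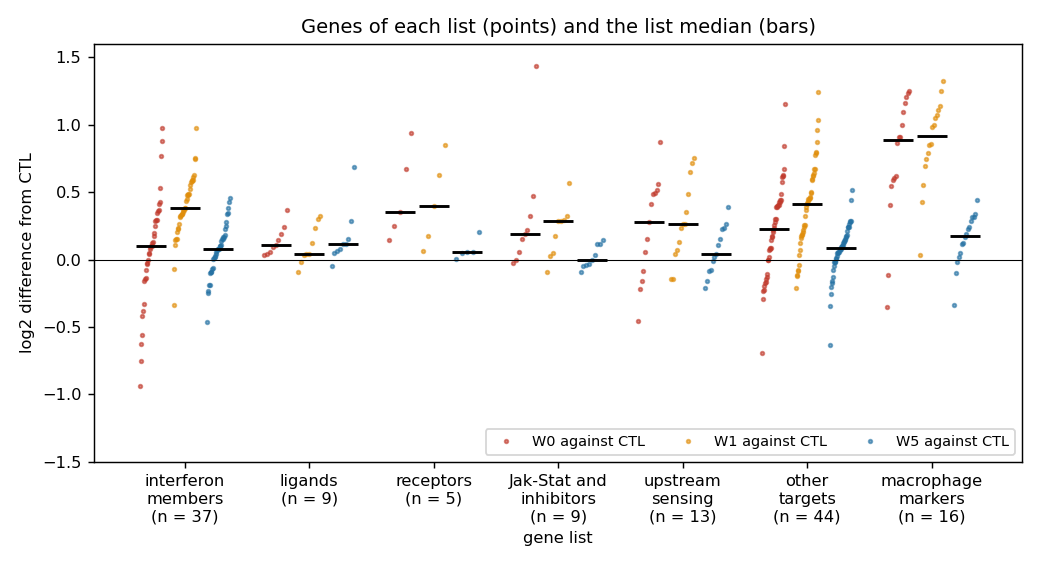
Log2 differences from CTL (vertical axis) for the members, the 5 further lists and the macrophage markers (horizontal axis), at W0, W1 and W5. Each point is a gene and each bar the median of its list. The members' medians are 0.10, 0.38 and 0.08, and the macrophage markers' medians are 0.89, 0.92 and 0.18.

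Most macrophage markers were higher at W0 and W1, and other cell type lists differed. At W0 14 of 16 were above CTL and 2 below, and at W1 all 16 were above. Adgre1 was the lowest of them at both, with differences of -0.35 and 0.04. For all the cell type lists, the shares called over all genes were 4.99% higher and 4.41% lower at W0. At W1 they were 2.23% and 0.787%. Of 16 macrophage markers 10 were called higher at W0, 10 at W1 and none at W5, and the mean log2 level of the list ranged over the arrays from 6.18 to 6.27 in CTL, 6.62 to 7.37 at W0, 6.94 to 7.27 at W1 and 6.32 to 6.49 at W5. The median difference from CTL over the macrophage markers was 0.89 at W0 and 0.92 at W1. Over the interferon members it was 0.10 and 0.38. Of 13 T and NK cell markers none was called at W0 and 1 at W1, with list means of 4.49 to 4.73 in CTL, 4.73 to 5.17 at W0, 5.02 to 5.11 at W1 and 4.84 to 4.97 at W5. The general leukocyte list had 1 of 6 called higher at W0 and 3 at W1, with list means of 6.44 to 6.55 in CTL, 6.82 to 7.54 at W0 and 7.10 to 7.53 at W1. Of 7 neutrophil markers 2 were called higher at W0, S100a8 (2.67) and S100a9 (2.18), and none at W1, where both were high in W1 replicate 2 alone (list means of 3.78 to 3.96 in CTL, 4.41 to 4.88 at W0 and up to 4.81 at W1). None of 5 B and plasma cell markers was called, with list medians against CTL of 0.02 at W0 and 0.09 at W1. The dendritic cell list, with 2 of 6 called higher at W0 and 1 at W1, went from 4.96 to 5.14 in CTL to 5.22 to 5.49 at W0 and 5.33 to 5.48 at W1. Of 10 proximal tubule markers, which were bright in all arrays as is usual in kidney (9.89 to 10.70), 6 were called lower at W0 and 2 at W1, and of 7 markers of the thick ascending limb and distal tubule 2 were called lower at W0 and none at W1. Of 5 podocyte markers Plce1 was called higher at W0 (0.57). In that list 3 were above CTL and 2 below at W0, with a median of 0.02. Of 7 endothelial markers Ehd3 was called lower at W0 (-0.53) and at W1 (-0.63). The endothelial list was mixed, with 2 above CTL and 5 below at W0, and 4 above and 3 below at W1. Its medians were -0.04 and 0.04, and Cdh5 was highest at 0.44 and 0.45, without a call. RMA levels have no zero, and the dimmest macrophage marker, Cd163, had a mean of 3.45 in CTL. The part of these cell types in the differences of the interferon members was not tested.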

How the data were processed

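Total RNA from kidney was hybridised to 12 arrays (3 for each group), and the authors deposited log2 expression values of 20944 probesets made with RMA, which corrects background, quantile-normalizes the arrays and summarises probes. The software version, the annotation used and the scanner files are not given in the sources used here. Each group was taken from the sample labels. Probesets were named through the platform annotation: 18510 carried 1 symbol, 575 several and 1859 none, and only the first kind was used, with the probeset of highest mean for each of 290 genes that had several. The authors' values were not normalized again. Array medians ran from 5.75 to 5.92, and the precision is set by the number of arrays and by the spread between them, with a median standard error of 0.145 over all genes for W0 minus CTL.

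A linear model with 1 mean per group was fitted to all 18166 genes with limma 3.58.1 in R 4.3.3 (lmFit, contrasts.fit and eBayes), with 6 comparisons between groups and a moderated F, and p-values were adjusted by Benjamini-Hochberg over all genes at 0.05. The fit was tested on simulated data. Exact permutation tests were run for single genes with scipy 1.17.1 in Python 3.11.15. The labels do not say that replicate numbers mark litters or days, and whether replicates were processed together is not given, so p-values measure the spread between these 12 arrays. The members and all gene lists were chosen with earlier results of these data known. Values of every array are given for members called in at least 1 of the 6 comparisons and for the 10 members with the highest F. The others are given by counts and ranges for each role, or by group means where a role held no called member. From the further lists, genes called against CTL are named, at most 6 a list by the size of the difference, together with receptors and ligands. Of the members named outside this rule, Isg15 and Mx1 are marked as such. Single differences of Herc6, Cmpk2, Ifit2, Ifit3, Oas1a, Oas2, Dhx58, Adar, Zbp1, Ifi27 and Xaf1 are also given outside it, without a mark where they stand.

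Alternatives were other scalings of the arrays, a filter on genes with a mean under 4, the mean of several probesets or all probesets, trend and robust variance models, only the compared groups in the fit, the replicate number as a block, each array left out, 2 arrays left out, and the methods' t-test. Promoter sequences and gene order came from RefSeq tables of GRCr8, and a promoter was present for 26 of the 37 measured members.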

Additional observations from a re-analysis of the deposited data

How the results depend on the processing

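None of the 12 called differences of single members turned its direction under any alternative. This is no support for them. The trend and robust models, the filter, all probesets, the compared groups alone, the block and the t-test leave a difference of means unchanged, so it could not turn there. The called differences were also picked for being large against their error, so a turn under the other alternatives was unlikely. Differences that were not called were not followed through the alternatives, and the members' median at W5 against CTL did turn with single arrays left out, to -0.03 without CTL replicate 2 and -0.02 without W5 replicate 3. The number of members called at W0 against CTL went from 6 to 3 with only the 2 groups in the fit, to 3 without W0 replicate 1 and W1 replicate 1, and to 0 with the methods' t-test after Benjamini-Hochberg, and ranged from 2 to 6 with single arrays left out. At W1 against CTL it went from 3 to 0 without those 2 arrays, to 9 with the t-test unadjusted and 0 adjusted, and ranged from 0 to 5 (0 without CTL replicate 1, CTL replicate 2, W1 replicate 1 or W1 replicate 2). At W5 against CTL it stayed at 0 except for 2 with the unadjusted t-test. Between W1 and W0 it was 1 with the filter on low means, 1 with the trend and 12 with the unadjusted t-test, and ranged from 0 to 2. Between W5 and W1 it was 9 with the unadjusted t-test and ranged from 0 to 1. Between W5 and W0 it was 1 with only these groups, 6 and 0 with the t-test unadjusted and adjusted, and ranged from 1 to 4. For the F test it was 2 without the 2 arrays and ranged from 3 to 6. The share of all genes is not set beside these counts, so they are not read as a result about the members.

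The replicate numbers were not taken to pair the arrays, since the labels do not say that they do. Correlations of the deviations from the group means over all genes ran from -0.04 to 0.17 over 18 pairs of equal number, against -0.21 to 0.19 for arrays of unequal number. Of the 12 arrays, 7 were closest to their own number, so arrays of equal number were in part alike. Among the members, replicate 3 was most often the highest array in CTL, W0 and W5 (34, 27 and 28 members), but not at W1 (5 members). With the replicate block, 7 members were called at W0, 3 at W1 and 0 at W5 against CTL. At W0 Isg15 was called lower in addition to the members of the main fit. Between W1 and W0 the block called 2 members (Isg15 and Usp18, both higher). It called 0 between W5 and W1, 4 between W5 and W0 and 5 by F. Here too the share of all genes is not set beside the counts, so they are not read as a result about the members. The causes of these changes were not tested.

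With 3 arrays a group the limits are wide: the 95% intervals at W0 against CTL were -1.47 to -0.03 for Mx1 and -0.76 to 0.47 for Irf7, the members with the largest CTL spreads, so changes of that size are not resolved. Fewer arrays in a fit also leave fewer degrees of freedom.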
